A study of Homo sapiens with 16 samples.

Results

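The adhesion receptors considered here were 10 genes, ITGA4, ITGA8, ITGAL, ITGB1, ITGB2, CD44, ICAM1, ICAM3, SELPLG and NCAM1, taken by symbol from an RNA-seq count table of 23354 genes. All 10 had an entry in the table, and 9 of them, every one but ITGB2, were among the 14215 genes with enough reads to be tested. The genes were chosen by name, with their log2 fold changes and calls in these comparisons already known, so the tests on them describe these libraries and are not independent support for any direction.

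RNA was sequenced from MM1S and MM1R, human multiple myeloma lines that differ in their response to glucocorticoid. MM1S is labelled glucocorticoid sensitive and is the parent of the resistant line MM1R. Each line received vehicle, 0.1 μM TAK-981 (an inhibitor of the SUMO E1 enzyme, which starts the attachment of the small protein SUMO to other proteins), 1 μM dexamethasone (Dex, a synthetic glucocorticoid) or both drugs together (combo, the same doses) for 48 h. These 8 groups held 2 libraries each, and the cells carried no engineered allele in the labels. Each line is a single culture-adapted line grown without bone marrow cells. Nothing states that duplicates came from separate cultures, so p-values measure only the spread between these libraries, which may be technical. That spread was pooled over the 8 groups, so it need not hold for a group whose duplicates differed more.

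Integrins are pairs of an alpha and a beta subunit. The α4 chain pairs with β1 or β7 and binds VCAM-1 and fibronectin, α8 pairs with β1 and binds nephronectin and other RGD-containing matrix proteins, and αL pairs with β2 to form LFA-1, the receptor for the ICAM proteins. CD44 binds hyaluronan, SELPLG encodes PSGL-1, the ligand of P-selectin, and NCAM1 encodes CD56, an immunoglobulin-family protein that binds to itself on neighbouring cells and is widely used as a marker of malignant plasma cells. In myeloma, such receptors hold plasma cells in the bone marrow.

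Library totals were 15707587 to 20644510 counts in MM1S and 18987739 to 24796539 in MM1R. All 9 plasma cell marker genes on the list were detected, with summed levels of 3669 to 6685 CPM (the read count relative to library size, scaled with TMM). Lists for T cells, NK cells, monocytes or macrophages, endothelium, stroma and erythroid cells summed to at most 14.8 CPM in any library. The mature B cell list summed to 57.3 to 186 CPM, nearly all from BACH2 and CIITA, while MS4A1 had at most 2 reads and PAX5 at most 11. NR3C1, the gene of the glucocorticoid receptor, stood at 239 to 357 CPM in MM1S and 16.7 to 20.5 CPM in MM1R. In the build hg19, ICAM1 (chromosome 19, 10381517 to 10397291, plus strand) and ICAM3 (chromosome 19, 10444452 to 10450345, minus strand) lie near each other. ITGA8 (15559088 to 15761770) and ITGB1 (33189246 to 33247293) are both on chromosome 10, minus strand, and CD44 (35160417 to 35253949) and NCAM1 (112831969 to 113149158) on chromosome 11, plus strand. Values are for whole genes, with reads of all transcripts of a gene summed. In bulk RNA, fewer cells carrying a transcript and less of it per cell cannot be told apart.

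RefSeq promoters (GRCh38.p14, 250 bases before to 50 after the gene start) were matched for 6 of the 10 genes. The gene start is that of the promoter source and was not checked against the 5′ end of the counted gene. The ICAM1 and ICAM3 starts used lie closer together than those of the counted genes in hg19, so the ICAM3 window may lie inside the counted gene. The ITGB1 window held 40.7% G and C, against 63.3% to 72.3% in the others, and may also lie away from the start of its counted gene. The 6 promoters were searched on both strands for 7 motifs. ICAM1 and ICAM3 held the only matches, and the matched letters are shown in capitals within 30 bases, 5′ to 3′ on the gene's strand. Both genes rose with TAK-981 in both lines. So did ITGA8, whose promoter held no match, and ITGAL, for which no promoter was matched. The pattern GGNNNTTCC (NF-kB-like) and the pattern TTCNNNGAA (STAT-like) each matched in ICAM1, at bases -186 to -178 and -75 to -67 from the gene start, and GGNNNTTCC matched in reverse in ICAM3 at bases -7 to 2.
ICAM1, NF-kB-like, chr19:10270924-10270953, plus strand: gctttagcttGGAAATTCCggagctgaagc
ICAM1, STAT-like, chr19:10271035-10271064, plus strand: ggcgcgaggtTTCCGGGAAagcagcaccgc
ICAM3, NF-kB-like, chr19:10334808-10334837, minus strand: ttgacccacaGGAAGGTCCtgttcattaag
Of 35116 promoters of this length, 20.1% held GGNNNTTCC and 7.66% held TTCNNNGAA, so these matches are a description of the letters and not evidence of a bound factor. The pattern TGANTCA (AP-1-like) was in 7.71% of all promoters, CACGTG (E-box) in 7.26%, CCGGAAGT (ETS-like) in 4.14%, the interferon-stimulated response element in 3.57% and the glucocorticoid receptor palindrome in 0.390%. None of these 5 was in the 6 windows searched, some of which may not be the promoter of the counted gene. TTCNNNGAA and GGNNNTTCC can overlap each other by their TTC or GAA letters, but the ICAM1 matches did not.

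Levels of different genes were compared per length, as CPM per kb of the gene length given in the table. In vehicle-treated MM1S, SELPLG (193 CPM per kb) and CD44 (188) led, and their libraries overlapped. ITGA8 (68.0), ICAM3 (56.4), ITGA4 (50.8), ITGAL (35.7) and ITGB1 (27.1) followed, then ICAM1 at 6.56, NCAM1 at 1.19 and ITGB2 at 0.0226 CPM per kb, and no other neighbours in this order overlapped. In vehicle-treated MM1R the order was SELPLG (182), CD44 (128), ICAM3 (53.5), ITGAL (41.7), ITGA8 (35.7), ITGA4 (29.0), ITGB1 (22.1), ICAM1 (17.2), NCAM1 (0.513) and ITGB2 (0.0900), with no neighbours overlapping. The plot of levels per length shows both ends of this range.

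**Figure D1:**
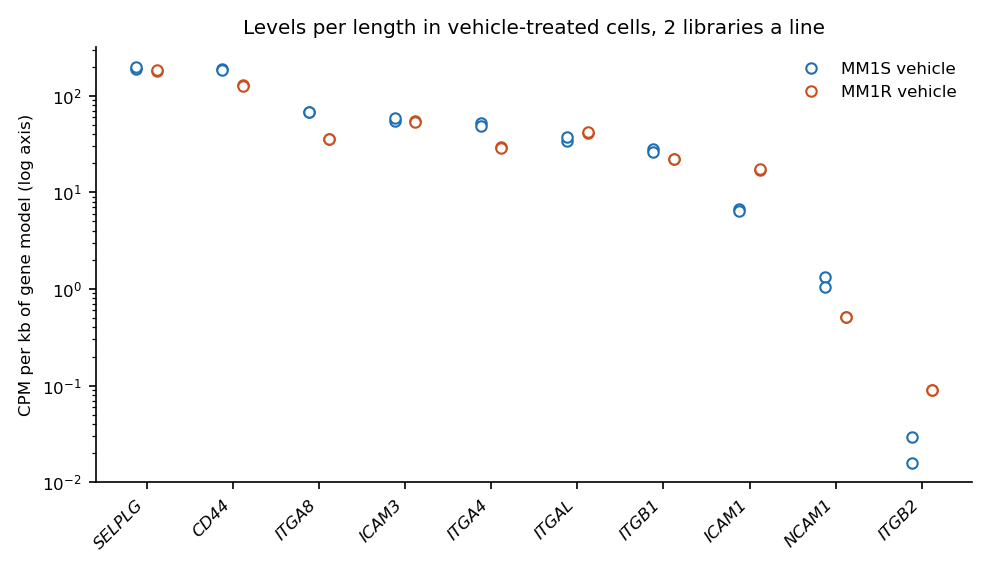
Level per length of each adhesion receptor gene in vehicle-treated MM1S and MM1R cells, in CPM per kb on a log axis, with 1 point per library (2 per line). SELPLG and CD44 sit at 128 to 193 CPM per kb on average and ITGB2 below 0.1.

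The beta chains did not match their alpha chains in level. ITGB2, the only partner of αL, had 2 and 1 reads in vehicle-treated MM1S, 0 and 0 with TAK-981, 0 and 2 with Dex and 0 and 1 with combo. In MM1R it had 7 and 7 reads with vehicle, 5 and 4 with TAK-981, 9 and 9 with Dex and 8 and 3 with combo. Every MM1R library thus held more ITGB2 reads than any MM1S library, but all 4 MM1S groups were at or below a floor of 3 counts a library, which corresponds to 0.141 to 0.186 CPM and covers counting error only, so no fold is given. Without a filter on low counts, edgeR's adjusted p for the vehicle difference was 0.127. ITGAL itself had 3027 to 6336 reads a library, so its level was far above that of ITGB2 in both lines. ITGB7, the other partner of α4, was picked out after its values were seen. It stood at 4014 CPM per kb in vehicle-treated MM1S and 4216 in vehicle-treated MM1R, and took 1.05% to 1.84% of all counts in the MM1S libraries. ITGB1 stood at 27.1 and 22.1 CPM per kb in the same groups, below ITGA4 and ITGA8 in both lines.

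The vehicle-treated groups give the difference between the lines before any drug. Of the 9 genes tested, 5 were lower and 2 higher in MM1R (edgeR quasi-likelihood test, adjusted p under 0.05), against 22.6% and 25.6% of all genes, or 48.2% called in either direction. ICAM1 had 463 and 404 reads in MM1S and 1331 and 1364 in MM1R, a level of 21.2 ± 0.74 against 55.6 ± 0.85 CPM (SD, n = 2 each). The groups did not overlap, and the log2 difference was 1.39 (SE 0.08, edgeR adjusted p = 2.41e-10). ITGAL was 0.23 higher (SE 0.06, edgeR adjusted p = 0.00731), a call that was lost without MM1S vehicle replicate 1 (adjusted p = 0.0989) or without MM1R vehicle replicate 2 (adjusted p = 0.0553). The integrin chain of the VCAM-1 receptor, ITGA4, was lower in MM1R (336 ± 16.9 against 191 ± 1.7 CPM, log2 difference -0.81, SE 0.06), as was ITGA8 (220 ± 1.1 against 115 ± 1.3 CPM, log2 difference -0.93, SE 0.05). The log2 difference was -0.56 for CD44, -0.30 for ITGB1 and -1.22 for NCAM1, all called. ICAM3 (-0.08, edgeR adjusted p = 0.459) and SELPLG (-0.08, edgeR adjusted p = 0.331) did not pass.

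**Figure D2:**
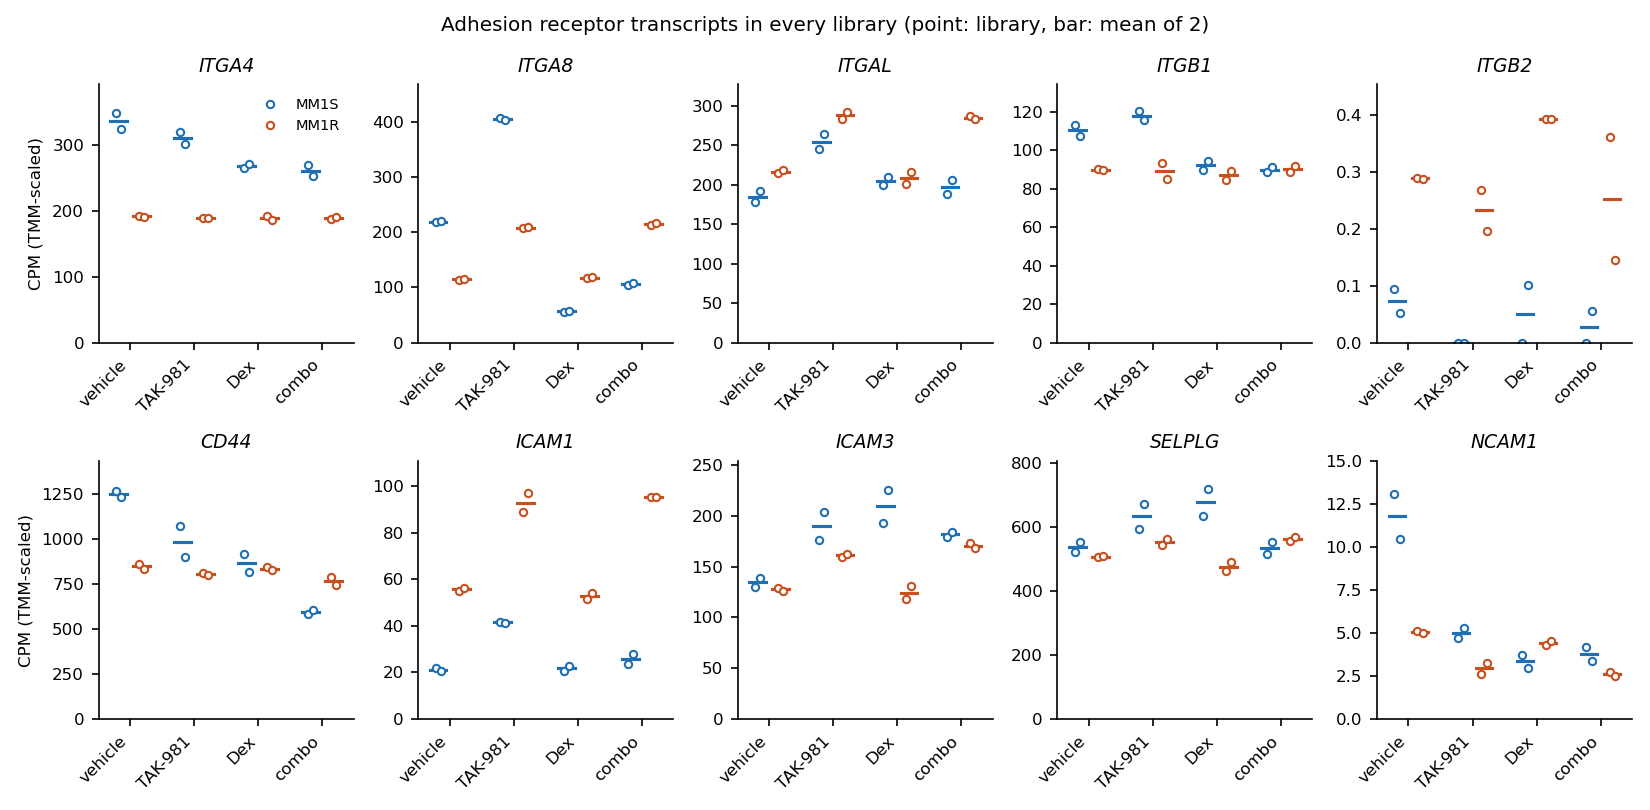
TMM-scaled CPM of the 10 genes by treatment, 1 panel per gene with its own axis from 0, MM1S in blue and MM1R in orange, points for the 2 libraries and a bar at their mean. ITGA8 in MM1S ran from 56.5 CPM with Dex to 406 with TAK-981, and none of the 9 genes tested was called for Dex against vehicle in MM1R. ITGB2, at 3 to 9 reads a library in MM1R, was not tested.

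ITGA8 had the lowest log2 fold change against vehicle of the 9 genes tested, with Dex in MM1S. In MM1S it had 4657 and 4298 reads with vehicle, 7864 and 7844 with TAK-981, 1085 and 1124 with Dex, and 1690 and 1950 with combo. On the CPM scale these were 220 ± 1.1, 406 ± 2.9, 56.5 ± 0.31 and 106 ± 1.8 (SD, n = 2 each), and no 2 of the 4 groups overlapped. TAK-981 raised ITGA8 by a log2 fold change of 0.89 (SE 0.05, edgeR adjusted p = 1.1e-10) and Dex gave -1.96 (SE 0.06, edgeR adjusted p = 4.77e-15). The log2 difference of combo was -1.05 against vehicle, 0.91 against Dex and -1.94 against TAK-981, and each passed. The departure of combo from the summed changes of the 2 drugs was 0.02 (SE 0.07, edgeR adjusted p = 0.878). In MM1R, ITGA8 had 2765 and 2817 reads with vehicle, 3856 and 4262 with TAK-981, 2666 and 2737 with Dex, and 4709 and 4486 with combo. Its level of 115 ± 1.3 CPM with vehicle became 208 ± 2.1 with TAK-981 (log2 fold change 0.86, SE 0.05, edgeR adjusted p = 2.93e-10) and 215 ± 2.0 with combo. Dex alone left it at 118 ± 2.1 CPM in MM1R, and the Dex response differed between the lines by 1.99 (SE 0.07, edgeR adjusted p = 1.3e-12).

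ITGA4 moved less than ITGA8. In MM1S it had 7395 and 6311 reads with vehicle, 6141 and 5844 with TAK-981, 5116 and 5367 with Dex, and 4334 and 4604 with combo. Both groups with Dex lay below vehicle, with log2 fold changes of -0.32 for Dex (SE 0.06, edgeR adjusted p = 0.000144) and -0.36 for combo (SE 0.06, edgeR adjusted p = 2.16e-05), while TAK-981 gave -0.12 (edgeR adjusted p = 0.101, or 0.0277 with library sizes unscaled). In MM1R all 4 groups averaged 189 to 191 CPM. The difference of the Dex response between the lines was 0.31 (edgeR adjusted p = 0.00812) and was not called without MM1S vehicle replicate 1 (0.25, adjusted p = 0.0560). ITGB1, the shared beta chain, had 2408 and 2096 reads with vehicle in MM1S, 2316 and 2243 with TAK-981, 1727 and 1875 with Dex, and 1432 and 1657 with combo. It gave -0.26 with Dex (edgeR adjusted p = 0.00225), -0.30 with combo (adjusted p = 0.000487) and 0.09 with TAK-981 (adjusted p = 0.216). In MM1R its means were 86.9 to 90.4 CPM.

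ITGAL rose with TAK-981 in both lines. Its reads went from 3780 and 3737 with vehicle to 4713 and 5138 with TAK-981 in MM1S, and from 5181 and 5288 to 5283 and 5914 in MM1R, where the TAK-981 libraries had lower totals. The log2 fold changes were 0.46 (SE 0.06, edgeR adjusted p = 9.64e-06) and 0.41 (SE 0.06, edgeR adjusted p = 3.23e-05). With combo, ITGAL was at 285 ± 2.9 CPM in MM1R, above vehicle at 216 ± 2.7, whereas in MM1S the combo libraries (3027 and 3751 reads, 197 ± 13.3 CPM) overlapped those of vehicle (185 ± 9.9 CPM). ICAM1, a ligand of LFA-1, also rose with TAK-981 in both lines. It went from 21.2 to 41.5 ± 0.19 CPM with TAK-981 in MM1S (802 and 803 reads), a log2 fold change of 0.96 (SE 0.08, edgeR adjusted p = 1.96e-08). Dex left ICAM1 at 21.7 ± 1.5 CPM (399 and 451 reads) and combo at 25.9 ± 3.0 CPM (384 and 509 reads). The combo value was 0.29 above vehicle (edgeR adjusted p = 0.0082), a call lost without MM1S vehicle replicate 2 (adjusted p = 0.0623) or MM1S combo replicate 2 (adjusted p = 0.176), and the difference from TAK-981 was -0.68 (adjusted p = 3.31e-06). In MM1R, ICAM1 rose to 92.9 ± 5.6 CPM with TAK-981 (1657 and 1966 reads, log2 fold change 0.74, SE 0.07) and stood at 95.3 ± 0.23 CPM with combo (2101 and 1982 reads), both above all vehicle libraries.

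ICAM3, which is carried by most white blood cells and binds LFA-1, rose with each drug alone in MM1S. It had 2769 and 2718 reads with vehicle, 3401 and 3968 with TAK-981, 3733 and 4473 with Dex, and 2898 and 3352 with combo. The log2 fold changes were 0.50 for TAK-981, 0.64 for Dex and 0.43 for combo, each with an SE of 0.08 and all with edgeR adjusted p of 0.000121 or less. In MM1R it rose by 0.33 with TAK-981 (edgeR adjusted p = 0.00169) and by 0.42 with combo, and gave -0.04 with Dex. SELPLG had 11098 and 10791 reads with vehicle in MM1S, 11463 and 13069 with TAK-981, 12270 and 14289 with Dex, and 8332 and 10083 with combo. TAK-981 raised it by 0.24 (edgeR adjusted p = 0.00767) and Dex by 0.34 (adjusted p = 0.000622), and combo overlapped vehicle (-0.01, adjusted p = 0.948). With only the groups compared in the fit, TAK-981 gave 0.21 (edgeR adjusted p = 0.0797) and was not called. The TAK-981 call was lost without MM1S vehicle replicate 1 (adjusted p = 0.0916) or MM1S TAK-981 replicate 2 (adjusted p = 0.114). In MM1R SELPLG gave 0.12 with TAK-981 (adjusted p = 0.137) and 0.15 with combo (adjusted p = 0.0765).

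CD44 and NCAM1 were the members that fell with each drug alone in MM1S. CD44 had 27034 and 24105 reads with vehicle, 20696 and 17479 with TAK-981, 17730 and 16165 with Dex, and 9405 and 11016 with combo. Its level of 1253 ± 24.4 CPM with vehicle fell to 987 ± 123 with TAK-981, 867 ± 73.4 with Dex and 594 ± 16.4 with combo, a change of -52.6% under both drugs. The log2 fold changes were -0.34 (SE 0.07, edgeR adjusted p = 0.000581), -0.53 (SE 0.07, adjusted p = 8.53e-06) and -1.08 (SE 0.07, adjusted p = 2.82e-10). Without MM1S TAK-981 replicate 2 the TAK-981 value was -0.22 (adjusted p = 0.0129), and without replicate 1 it was -0.48. The difference of combo was -0.73 from TAK-981 and -0.55 from Dex, both called, and its departure from the summed single changes was -0.20 (SE 0.10, adjusted p = 0.198). In MM1R CD44 had 20835 and 20304 reads with vehicle, 15174 and 16243 with TAK-981, 19354 and 18975 with Dex, and 17496 and 15510 with combo, and none of its 3 changes passed (-0.07, -0.02 and -0.14 on the log2 scale). NCAM1, the lowest of the 9 tested, had 279 and 204 reads with vehicle in MM1S, 91 and 103 with TAK-981, 72 and 59 with Dex, and 68 and 61 with combo. Vehicle lay above every treated library, at 11.8 ± 1.9 CPM against 5.01 ± 0.41, 3.35 ± 0.54 and 3.78 ± 0.61. The log2 fold changes were -1.24 (SE 0.15), -1.82 (SE 0.16) and -1.65 (SE 0.16), all called, and combo overlapped Dex. In MM1R NCAM1 had 124 and 122 reads with vehicle, 49 and 66 with TAK-981, 98 and 104 with Dex, and 60 and 52 with combo. TAK-981 gave -0.78 (SE 0.18, edgeR adjusted p = 0.00121) and combo -0.96 (SE 0.18, edgeR adjusted p = 0.000209).

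**Figure D3:**
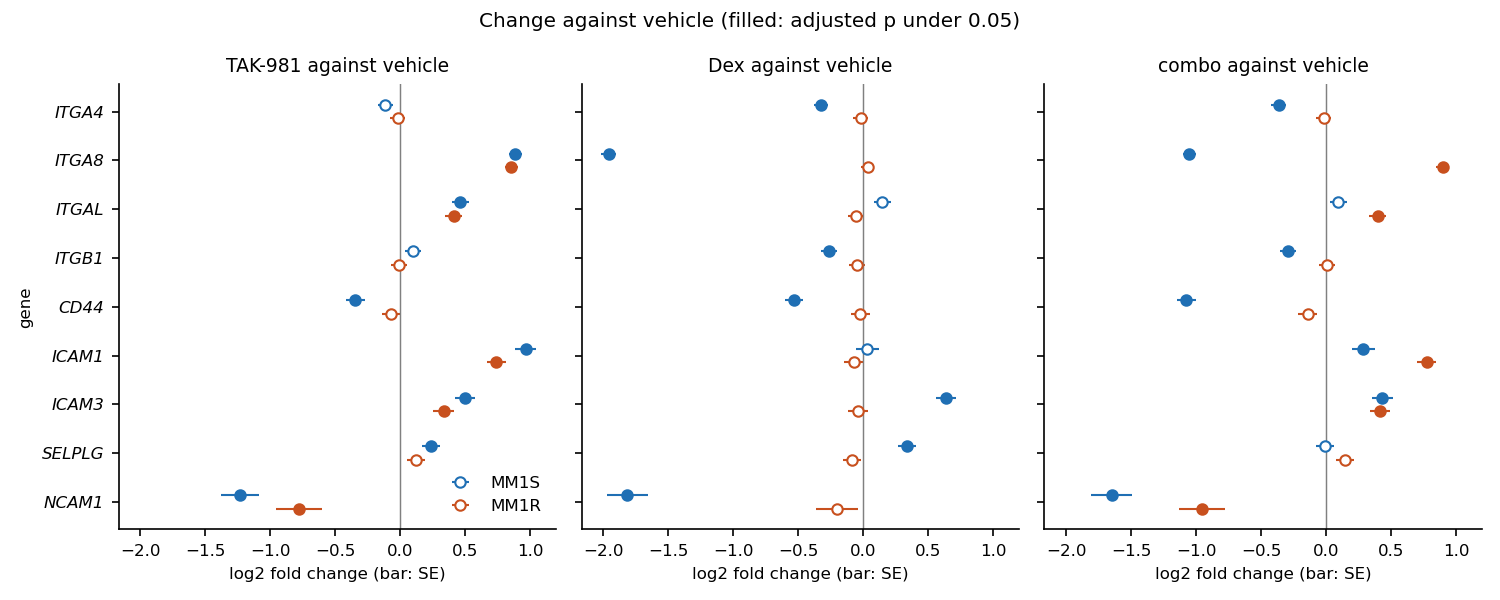
Log2 fold change against vehicle for the 9 genes tested, with SE bars, in MM1S (blue) and MM1R (orange), filled where edgeR's adjusted p was under 0.05. With TAK-981, ITGA8, ITGAL, ICAM1, ICAM3 and NCAM1 were called with the same sign in both lines, and with Dex no MM1R point was called.

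By comparison, TAK-981 changed 7 of the 9 genes in MM1S, 5 higher and 2 lower, against 49.0% of all genes tested (25.2% higher and 23.7% lower). In MM1R it changed 5 of 9, 4 higher and 1 lower, against 53.4% (25.8% higher and 27.6% lower). These shares are not read as a result, since the genes were chosen with results known. The TAK-981 response did not differ between the lines past the threshold for any of the 9 (edgeR, 0 of 9 against 4.16% of all genes at the adjusted threshold, and 1 of 9, CD44, against 21.3% at an unadjusted p under 0.05). The 95% intervals of that difference were -0.18 to 0.12 for ITGA8, -0.24 to 0.14 for ITGAL, -0.46 to 0.01 for ICAM1 and -0.04 to 0.95 for NCAM1 on the log2 scale. For CD44 the difference was 0.27 (interval 0.06 to 0.48, edgeR adjusted p = 0.135). It was called without MM1S TAK-981 replicate 1 (0.40, adjusted p = 0.00589), and that library held 1073 CPM of CD44 against 900 in the other one.

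Dex changed 7 of 9 genes in MM1S, 2 higher and 5 lower, against 42.3% of all genes (20.8% higher and 21.5% lower). In MM1R it changed 0 of 9 and 0 of 14215 genes by edgeR, with 0 of 9 and 395 of 14215 (2.78%) at an unadjusted p under 0.05. DESeq2 and a fit to only the groups compared also called 0 of the 9. The unadjusted share is below the 0.05 threshold, as it is for combo against TAK-981 and for the drug interaction in MM1R. The joint fit may thus be conservative for MM1R, which was not tested. Conversely, its SEs and p-values may be too small for MM1S with TAK-981 or with Dex. The 2 libraries of those groups differed the most, with a chi-square over genes of 21.2 and 19.2 per degree of freedom. That too was not tested. The 9 values in MM1R ran from -0.20 to 0.03. The response to Dex differed between the lines for 6 of 9 genes, 4 with a higher and 2 with a lower value in MM1R, against 28.1% of all genes (15.0% and 13.1%). MM1R minus MM1S was 1.99 for ITGA8, 1.61 for NCAM1, 0.51 for CD44, 0.31 for ITGA4, -0.42 for SELPLG and -0.68 for ICAM3. For ITGB1 it was 0.22 (adjusted p = 0.0744), for ITGAL -0.20 (adjusted p = 0.107) and for ICAM1 -0.10 (adjusted p = 0.543).

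Combo against vehicle changed 7 of 9 genes in MM1S (2 higher, 5 lower, against 60.3% of all genes, 30.8% and 29.5%) and 5 of 9 in MM1R (4 higher, 1 lower, against 51.5%, 24.8% and 26.7%). In MM1S combo was lower than TAK-981 alone for 7 of 9 genes and higher for 0, against 20.6% and 14.5% of all genes, or 35.1% in all. ICAM3 (-0.07, edgeR adjusted p = 0.561) and NCAM1 (-0.41, edgeR adjusted p = 0.0854) were the other two, and the call for SELPLG (-0.24, adjusted p = 0.00946) was lost without MM1S TAK-981 replicate 2 (adjusted p = 0.121) or MM1S combo replicate 1 (adjusted p = 0.104). Against Dex alone, combo was higher for ITGA8 and ICAM1 and lower for CD44, ICAM3 and SELPLG in MM1S (5 of 9 against 47.6%, 2 higher against 22.2% and 3 lower against 25.4%). The ICAM1 call (0.26) was lost without MM1S Dex replicate 1 (adjusted p = 0.152) or MM1S combo replicate 2 (adjusted p = 0.308). The ICAM3 call (-0.20) was lost without MM1S Dex replicate 2 (adjusted p = 0.434), MM1S combo replicate 1 (adjusted p = 0.160) or MM1S combo replicate 2 (adjusted p = 0.0939), and its value was -0.31 without MM1S Dex replicate 1. In MM1R combo differed from TAK-981 alone for 0 of 9 genes, with values of -0.18 to 0.08 (edgeR, 0 of 9 and 214 of 14215 genes, 1.51%, at an unadjusted p under 0.05). It differed from Dex alone for 6 of 9 (5 higher, 1 lower, against 48.4%, 23.1% and 25.3%). The SELPLG call among those 6 (0.24, adjusted p = 0.00786) was lost without MM1R Dex replicate 1 (adjusted p = 0.0733) or MM1R combo replicate 2 (adjusted p = 0.0582). Contrasts within a line share libraries, so these counts are not independent of each other.

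Whether the drugs added on the log2 scale was tested as an interaction. In MM1S, combo minus the summed single changes was -0.71 for ICAM1 (SE 0.12), -0.70 for ICAM3 (SE 0.11), -0.58 for SELPLG (SE 0.10), -0.52 for ITGAL (SE 0.09) and 1.40 for NCAM1 (SE 0.24), each with an edgeR adjusted p between 0.000382 and 0.000991. That is 5 of 9 genes against 14.9% of all genes, 4 lower against 9.48% and 1 higher against 5.47%. For SELPLG the 2 single changes summed to 0.57 and combo gave -0.01. For NCAM1 they summed to -3.05 and combo gave -1.65, at 61 and 68 reads. In MM1R 0 of 9 interactions were called (0 of 9 and 400 of 14215 genes, 2.81%, at an unadjusted p under 0.05 by edgeR), with values of -0.05 to 0.12.

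**Figure D4:**
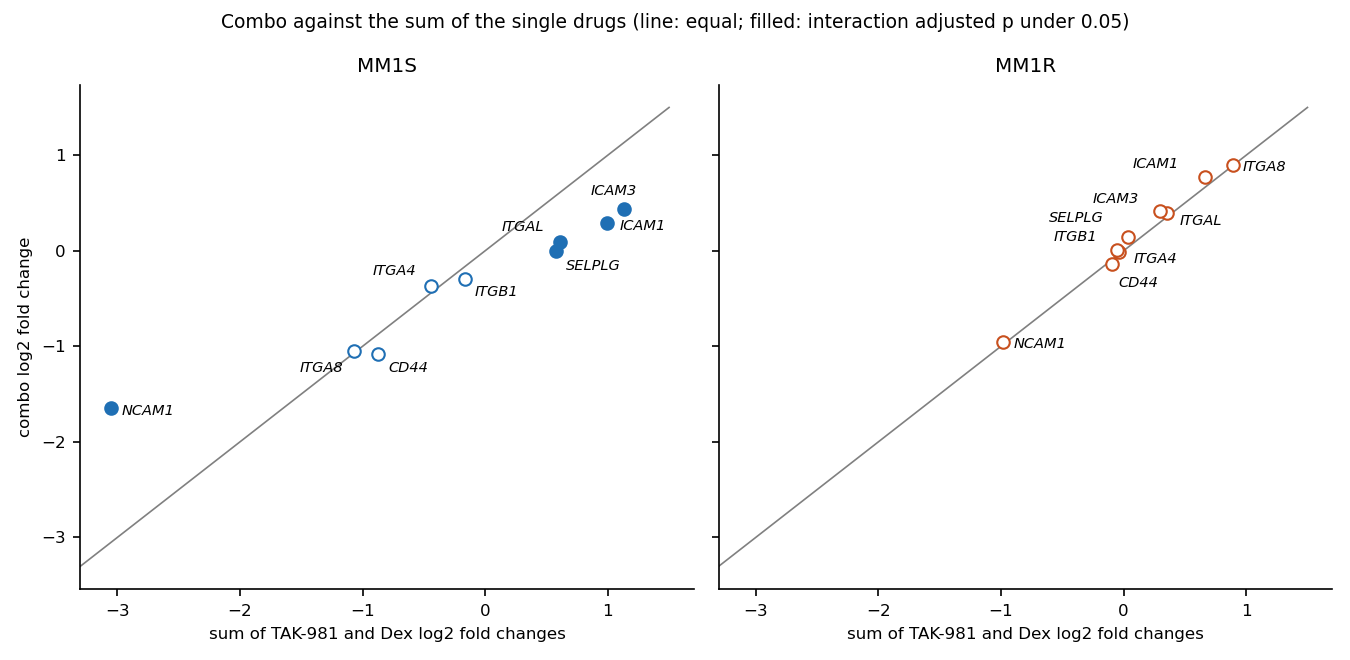
Log2 fold change with combo (vertical) against the sum of the TAK-981 and Dex log2 fold changes (horizontal) for the 9 genes tested in MM1S (left) and MM1R (right), with the line of equality and points filled where the interaction had an edgeR adjusted p under 0.05. In MM1S ITGAL, ICAM1, ICAM3 and SELPLG lie below the line, NCAM1 lies above it at -3.05 and -1.65, and ITGA8 lies on it.

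The other adhesion genes were taken from 9 lists of 191 genes, of which 189 were in the table and 146 were tested. TAK-981 changed 85 of the 146 in MM1S (40 higher, 45 lower) with a median log2 fold change of -0.04, against 0.04 over all genes, and 90 in MM1R (42 higher, 48 lower). These are 58.2% and 61.6% of the listed genes, against 49.0% and 53.4% of all genes. Among the other integrin subunits, 7 of 16 (43.8%) changed in MM1S and 8 of 16 (50%) in MM1R, against the same 49.0% and 53.4%. NPNT encodes nephronectin, the ligand of the α8β1 integrin, and gave -1.28 with TAK-981 in MM1S (edgeR adjusted p = 7.63e-12) and -0.70 in MM1R (adjusted p = 2.04e-08). ITGA8 rose in both of these comparisons. With Dex in MM1S NPNT gave -0.53 (adjusted p = 7.64e-07), where ITGA8 also fell. FN1, which encodes fibronectin, fell by 2.10 with Dex in MM1S (edgeR adjusted p = 1.01e-12), where ITGA4 and ITGA8 also fell. With TAK-981 FN1 gave -0.97 in MM1S, at an adjusted p of 6.79e-09, and its MM1R value was -0.36 (adjusted p = 0.000755), where ITGA8 rose and ITGA4 was not called.

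Of the 15 tested genes of hyaluronan binding, shedding and ERM linkage listed beside CD44, 8 fell and 2 rose with TAK-981 in MM1S, and 7 fell and 1 rose in MM1R, where 23.7% of all genes in MM1S fell and 25.2% rose, and for MM1R 27.6% fell and 25.8% rose. HMMR, another hyaluronan-binding protein with a role at the mitotic spindle, gave -1.22 with TAK-981 and -1.21 with Dex in MM1S, both called. On the selectin list, 7 of 11 genes changed with TAK-981 in MM1S (2 higher, 5 lower) and 7 of 11 with Dex (5 higher, 2 lower), which is 63.6% each time against 49.0% and 42.3% of all genes. FUT7, an enzyme that adds the fucose with which PSGL-1 binds selectins, was looked up after its values were seen and had 0 to 1 reads in every library. FUT4, another fucosyltransferase gene on this list, stood at 5.75 CPM with vehicle in MM1S and gave 0.60 with Dex (edgeR adjusted p = 0.00248). It too was picked with its values known. Of the NCAM list, ST8SIA2, which adds polysialic acid to NCAM1, gave -1.79 with TAK-981 in MM1S (edgeR, 2.26e-10 after adjustment) and -2.03 in MM1R (2.46e-11). NCAM1 fell in the same comparisons. ST8SIA4, the other NCAM polysialyltransferase and the one with the higher level (27.3 against 1.33 CPM per kb with TAK-981 in MM1S), was looked up after its values were seen and went the other way, with 0.20 in MM1S (edgeR adjusted p = 0.0401) and 0.47 in MM1R (adjusted p = 7.14e-05).

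Dex in MM1S changed 69 of 146 listed genes (34 higher, 35 lower), or 47.3% against 42.3% of all genes, and in MM1R 0 of 146. CXCR4, the receptor for the marrow chemokine CXCL12, rose by 3.19 with Dex in MM1S (edgeR adjusted p = 2.51e-16). PTK2B, an adhesion-linked kinase, rose by 1.61 and FGFR1, a binding partner of NCAM1, by 1.19, whereas the chemokine gene CCL3 fell by 2.33. Between the vehicle-treated lines, 79 of 146 listed genes differed (40 higher in MM1R, 39 lower), or 54.1% against 48.2% of all genes. Of these, ITGA6, a laminin receptor chain, was 1.06 higher in MM1R, and the log2 difference was -1.56 for ITGB8, -1.15 for FYN and -1.23 for GDNF.

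The monocyte list was higher with TAK-981 in both lines, as were ITGA8, ITGAL, ICAM1 and ICAM3. Its summed level was 1.41 to 1.85 CPM with vehicle and 3.81 to 4.31 with TAK-981 in MM1S, and 7.79 to 7.90 and 12.7 to 14.8 in MM1R. The list summed to 1.61 to 2.12 CPM with Dex and 2.17 to 2.75 with combo in MM1S, and 6.12 to 6.68 and 12.8 to 13.2 in MM1R. Of its 7 genes S100A8 had 0 reads in every library, and LYZ and FCGR3A had at most 2. Its highest genes were S100A9, with 4 to 232 reads (up to 11.4 CPM), and ITGAM, the integrin chain αM, with 13 to 79 reads, which was chosen after its values were seen and rose by 1.60 with TAK-981 in MM1S and by 1.51 in MM1R. The endothelial list followed ITGA8 in MM1S, from 6.51 to 9.21 CPM with vehicle to 12.3 to 12.9 with TAK-981 and 0.518 to 1.11 with Dex. Of its 5 genes CDH5 had 0 reads in every library, KDR at most 2 and TEK at most 3, and PECAM1, itself an adhesion receptor, reached 12.7 CPM. The mature B cell list went from 113 to 124 CPM with vehicle in MM1S to 161 to 186 with Dex and 143 to 156 with combo. The plasma cell list stood at 5209 to 5306 CPM with vehicle in MM1S, 4088 to 4306 with Dex and 3669 to 3842 with combo. With Dex and with combo, ITGA4, ITGA8, ITGB1, CD44 and NCAM1 were also called lower, but ICAM3 was called higher. SELPLG was called higher with Dex only and ICAM1 with combo only. The part of these lists in the results was not tested.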

How the data were processed

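Total RNA of the 16 libraries was sequenced, and the authors deposited raw read counts per gene with a length (kb) and position for each gene. The submitters' processing notes name bcl2fastq 2.18.0.12, STAR 2.6.0, HTSeq 0.6.0, edgeR 3.28.1 and the build hg19. The annotation and the strand setting of the counting are not given in the sources used here. Samples were grouped by their labels. Members and lists were chosen with earlier results of these data known.

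Counts were analysed in R 4.3.3 with edgeR 4.0.16: filterByExpr (min.count 10, min.total.count 15) kept 14215 of 23354 genes, sizes were scaled with TMM, and a robust quasi-likelihood fit of 8 groups (8 residual degrees of freedom) gave 15 contrasts. Genes were called at a Benjamini-Hochberg adjusted p under 0.05 over all genes tested. Log2 CPM used a prior count of 2. On simulated counts for TAK-981 against vehicle in MM1S over 13885 genes, 75.8% of 99 genes changed 1.5-fold and 88% of 100 changed 2-fold were called. All other genes had the same mean in every group, and the spread followed the trend over all genes. These shares therefore need not hold for the real libraries. Genes overlapping a member had at most 17 reads. Named list genes were the 3 higher and 3 lower with the smallest adjusted p in each of 4 contrasts, with a log2 fold change of 1 or more in size and a mean log2 CPM of at least 1. Of the 2 genes with the highest Pearson correlation with each member over the 16 libraries, the first is given. Alternatives were RLE scaling, library size only, no filter, a replicate block, DESeq2 1.42.0, only the groups compared, a fold threshold, and leaving out each library. Replicate numbers were not treated as pairs in the main fit.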

Additional observations from a re-analysis of the deposited data

Results flagged for a closer look

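Among the adhesion receptors, 11 responses differed between the lines or between the presence and absence of the other drug. Each was a test of the difference itself (edgeR, adjusted over all genes). The Dex response differed between the lines for 6 of 9 genes, against 28.1% of all genes, and the TAK-981 response for 0 of 9, against 4.16%. The drug interaction was called for 5 of 9 in MM1S, against 14.9%, and for 0 of 9 in MM1R, against 0 of 14215. The called tests share the MM1S vehicle and Dex libraries, and NCAM1, ICAM3 and SELPLG are in both, so the 11 are not separate observations. Between the lines, the Dex response in MM1R minus that in MM1S was 1.99 for ITGA8 (-1.96 in MM1S and 0.03 in MM1R), 1.61 for NCAM1, 0.51 for CD44, 0.31 for ITGA4, -0.42 for SELPLG and -0.68 for ICAM3. Within MM1S, the TAK-981 response in the presence of Dex minus that in its absence was -0.52 for ITGAL, -0.71 for ICAM1, -0.70 for ICAM3, -0.58 for SELPLG and 1.40 for NCAM1. All 11 values use the MM1S group with Dex, and the 5 within MM1S also use the MM1S group with TAK-981. In these 2 groups the 2 libraries differed the most from each other. The chi-square over genes divided by its degrees of freedom was 21.2 with TAK-981 and 19.2 with Dex, against 2.08 to 9.14 in the other 6 groups. The part of that spread in these differences was not tested.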

How the results depend on the processing

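With a call also needing a log2 fold change of 1 or more in size, the genes called among the 9 members and the 146 listed genes numbered 2 and 16 between the vehicle-treated lines. In MM1S they numbered 1 and 17 for TAK-981, 2 and 21 for Dex, 3 and 38 for combo against vehicle, 1 and 19 for combo against TAK-981, 0 and 24 for combo against Dex, and 1 and 5 for the drug interaction. In MM1R they were 0 and 18 for TAK-981, 0 and 16 for combo against vehicle and 0 and 13 for combo against Dex. For the line differences they were 2 and 21 with Dex, and 2 listed genes with TAK-981. The share of all genes called was not computed under this or the other settings of this section. These counts thus have no background beside them and are not read as many or few. With only the groups compared in the fit, combo against Dex in MM1S called 3 members and the MM1S drug interaction 24 listed genes. In MM1S that fit also lost SELPLG for TAK-981 (edgeR adjusted p = 0.0797), and ITGA4 and SELPLG for combo against TAK-981 (edgeR adjusted p = 0.114 and 0.125). It called SELPLG between the vehicle-treated lines and, in MM1R, SELPLG for TAK-981 and combo and CD44 for combo. The line difference in the TAK-981 response called 1 member, CD44, and 13 listed genes without a filter on low counts, which also called CD44 for combo in MM1R.

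The same difference called 1 member, CD44, and 19 listed genes with the replicate block, against 0 and 7 without it, the largest move of a count under the block. Deviations of same-numbered libraries correlated by 0.016 to 0.263 in MM1S and -0.013 to 0.082 in MM1R. The highest values were 0.263 for TAK-981 with Dex and 0.139 for TAK-981 with combo, both in MM1S. No label states a pairing, so the main fit did not treat the numbers as pairs. These values cannot settle whether the MM1S libraries were paired. The block also called ITGA4 for TAK-981 and ITGAL for Dex in MM1S, SELPLG for TAK-981 and combo in MM1R, and CD44 for combo in MM1R.

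Leaving out 1 library gave 0 to 1 members and 3 to 20 listed genes for the line difference with TAK-981, the highest without MM1S TAK-981 replicate 1. It gave 3 to 4 members for combo against Dex in MM1S, 28 to 56 listed genes for the MM1S drug interaction, and 0 to 1 listed genes for Dex in MM1R. No value that had been called turned its sign. Values not called were followed for the vehicle-treated lines, for treatments against vehicle except Dex in MM1R, and for combo against TAK-981 in MM1S. Among interactions, only CD44 in the line difference with TAK-981 was followed. Of these, leaving out 1 library turned the sign of ICAM1 with Dex in MM1S (-0.046 to 0.098) and SELPLG with combo in MM1S (-0.058 to 0.043). It also turned ICAM3 for combo against TAK-981 in MM1S (-0.17 to 0.045), and ITGB1 in MM1R with TAK-981 (-0.081 to 0.052) and with combo (-0.016 to 0.034). Other values not called were not followed. The cause was not tested. ITGB2, with 0 to 9 reads a library, is the member most limited by depth, and NCAM1, with 49 to 279, the most limited of the 9 tested.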

Other observations

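CEACAM1, a homophilic immunoglobulin-family adhesion protein, rose with TAK-981 by 1.47 in MM1S and by 2.98 in MM1R (edgeR adjusted p = 3.32e-09 and 1.59e-12), and the response differed between the lines by 1.51 (adjusted p = 8.96e-05). TAK-981 also raised, in MM1S and MM1R in turn, NCAM2, a homophilic relative of NCAM1, by 1.09 and 0.91, CTGF, a matrix protein that binds integrins, by 1.09 and 1.30, CD38, an ectoenzyme of plasma cells that binds PECAM-1, by 0.75 and 1.15, and ITGA10, a collagen receptor chain, by 0.92 and 1.86. FLNA, which links integrin tails to actin, gave -1.22 and -1.02, and the tetraspanin gene TSPAN33 -1.33 and -1.38. All of these were called in both lines. ITGB7, chosen after its values were seen, gave 0.25 with TAK-981, -0.08 with Dex and -0.49 with combo in MM1S, where combo minus the summed single changes was -0.66 (edgeR adjusted p = 7.63e-05). CXCR4 with combo in MM1S was 4.50 above vehicle, 1.13 above that sum (adjusted p = 5.94e-07).

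Over the 16 libraries, the genes whose log2 CPM followed the members most closely were GPC4 for ITGA4 (Pearson r = 0.991), ZDHHC18 for ICAM1 (0.987), TRADD for ICAM3 (0.985), BARX2 for ITGAL (0.977), TRPM8 for ITGA8 (0.966), RFC1 for NCAM1 (0.960), C3orf70 for ITGB1 (0.955), FRMD6 for CD44 (0.950) and SYNE3 for SELPLG (0.947). These values are a description, since the libraries fall into 8 groups and share lines and treatments.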
